A study of Mus musculus with 8 samples.

Results

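A set of 10 genes was followed across 8 brown adipose tissue (BAT) libraries. They are the AP-1 subunit genes Fos, Fosb, Jun, Junb and Jund, together with Egr1, Atf3, Ier2, Btg2 and Zfp36, and they were taken by exact gene symbol from a table of 56953 genes, in which all 10 were present once. The mice were C57BL/6J wild-type animals of 8 to 10 weeks, males or females, kept at 21 °C. In the cancer-associated cachexia group (CAC, 4 mice), 3000000 Lewis Lung Carcinoma (LLC) cells, a mouse lung tumor line, were injected under the skin of the right flank, and mice were followed for 21 days and kept in the study only if a tumor was found. Control mice (CTR, 4 mice) were given PBS. The sex of each mouse, the time of day and order of tissue collection, and the interval before freezing were not in the sources used here, and each library came from 1 mouse. The tumor dose was 1 cell number of 1 line, so the comparison is between a tumor-bearing and a PBS group only.

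Immediate early genes are transcribed within minutes of a stimulus from factors already present in the cell, without new protein synthesis, and most of their transcripts are short-lived. FOS and JUN family proteins pair through leucine zippers to form the AP-1 transcription factor, and EGR1 is a zinc finger transcription factor induced through the serum response factor and MAP kinases. In brown fat, sympathetic noradrenaline raises cAMP and switches on several of these genes, and dissection, dissociation and delays before freezing are known to induce them as well. For that reason each gene is given library by library.

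Library totals ran from 1823167 to 4827956 counts, and mitochondrial genes took 28.5% to 33.8% of them. Values below are CPM, the count of a gene for every 1000000 counts of its library after TMM scaling. A count of 0 in a library allows up to 3 counts, equal to 0.661 to 1.62 CPM depending on the library. All 12 brown adipocyte markers examined, Ucp1 among them, passed the filter on low counts, and their summed CPM ran from 17180 to 19143 over the CTR mice and from 16553 to 18965 over the CAC mice. In bulk tissue, fewer cells of a type and less RNA per cell cannot be told apart.

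No difference between CAC and CTR mice passed a test in any of the 10 genes. Of the 6 genes with enough reads to be tested, 0 passed edgeR's quasi-likelihood test at an adjusted p of 0.05, against 0.932% of the 9876 genes tested, and 0 reached an unadjusted p of 0.05, against 12.9% of all genes. DESeq2 also called 0 members, with 1 of 10, Egr1, below an unadjusted p of 0.05, and limma-trend called 0 of 6 with 0 below that level. In none of the 10 genes were the CTR and CAC libraries free of overlap, whereas 7.04% of all tested genes had groups that did not overlap. The median log2 fold change of the 6 tested members was 0.18, and that of all tested genes was -4.67e-05. The members' median leaves out 4 genes below the filter on low counts. With no filter, edgeR gave -0.84 for Fos, -0.48 for Fosb, -0.52 for Ier2 and 0.03 for Atf3. Among the 6 tested members, Egr1 stood apart in its spread between mice of the same group.

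**Figure D1:**
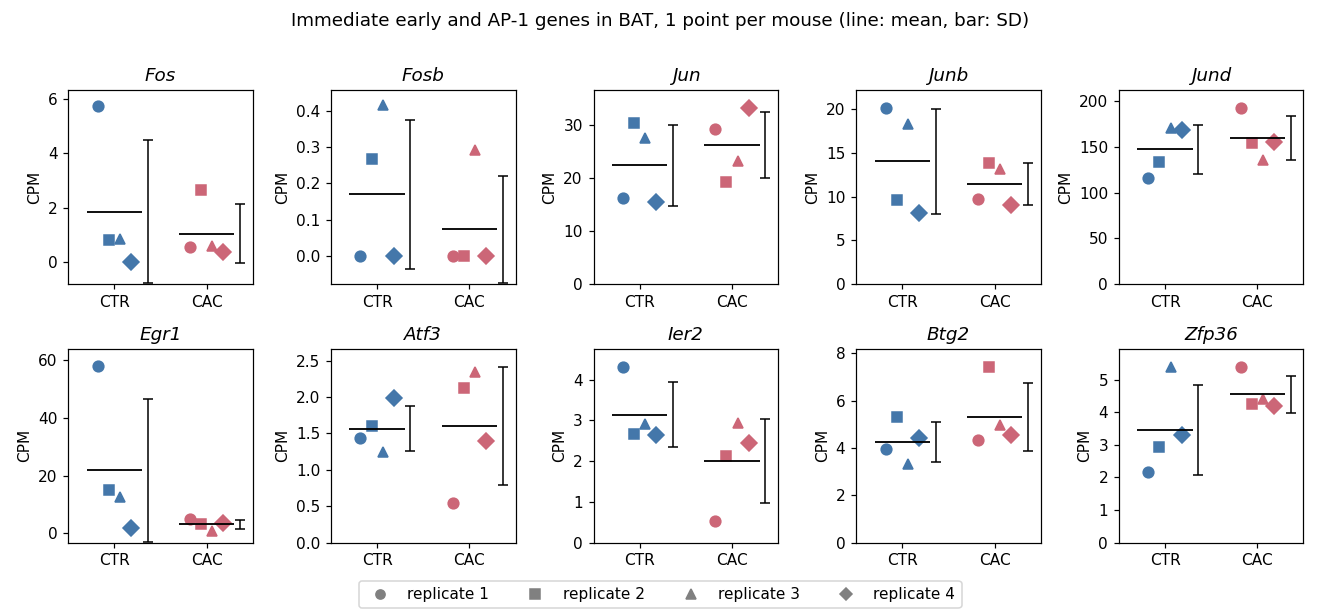
CPM (y axis, linear, a separate scale for each gene) of the 10 genes in CTR (blue) and CAC (red) BAT, with 1 point per mouse, its replicate number given by the symbol, the mean as a line and the SD as a bar (n = 4 per group). The CTR replicate 1 point is the highest of 8 for Fos, Junb, Egr1 and Ier2, and Egr1 spans 1.76 to 57.9 CPM among the CTR mice.

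Fos encodes the founding AP-1 subunit, which cannot pair with itself and needs a JUN partner. Its transcript is one of the classic unstable mRNAs, and its 3′ untranslated region holds 2 copies of the heptamer TATTTAT, written in DNA letters, the core of AU-rich elements that ZFP36 binds. Regulatory sequence is printed below for Fos and Junb, which are 2 of the 4 members highest in CTR 1, with Egr1 and Ier2. These are the 250 bases before the RefSeq transcription start of each gene (GRCm38.p6), with the CRE core letters TGACG, part of the site through which cAMP-activated CREB acts, in capitals where they occur on the printed strand. The Fos window is chr12:85473640-85473889 on the plus strand, and the Junb window is chr8:84978749-84978998 on the minus strand.
Fos: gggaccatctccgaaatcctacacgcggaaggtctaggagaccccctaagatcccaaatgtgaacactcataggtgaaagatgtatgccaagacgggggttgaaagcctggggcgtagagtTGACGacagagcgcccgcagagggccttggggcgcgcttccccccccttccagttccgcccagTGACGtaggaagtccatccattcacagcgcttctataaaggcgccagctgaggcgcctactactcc
Junb: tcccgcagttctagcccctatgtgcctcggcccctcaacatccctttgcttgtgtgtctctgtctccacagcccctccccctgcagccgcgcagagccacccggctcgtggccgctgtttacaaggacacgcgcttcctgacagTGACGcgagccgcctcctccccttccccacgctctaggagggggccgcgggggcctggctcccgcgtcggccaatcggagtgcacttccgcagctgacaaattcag
TGACG stood at 129 and at 66 bases before the start in Fos and at 106 bases in Junb. Searched on both strands, it was in 5 of the 8 member windows in the table (Fos, Fosb, Junb, Atf3 and Btg2) and in 17.8% of all 32851 windows. Of these 5, Fosb, Atf3 and Btg2 were not highest in CTR 1. A part of cAMP in the levels of the members was not tested. The full palindrome TGACGTCA, which contains TGACG, was in the Btg2 window only among members and in 1.55% of all windows, and the AP-1 letters TGACTCA were in 0 member windows and in 4.46% of all. The EGR1 letters GCGGGGGCG were in the windows of Fosb and Zfp36 and in 2.57% of all. The CArG box that serum response factor binds was in the Zfp36 window alone of the 8 searched, and in 1.47% of all. Sites outside these 250 bases, and members without a window, were not searched. These are matches of letters and not measured binding.

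Fos itself was close to the limit of detection. The gene is at chr12:85473890-85477273 on the plus strand and was counted at 16, 3, 2 and 0 in CTR 1 to 4 and at 1, 5, 2 and 1 in CAC 1 to 4, or 5.76, 0.799, 0.830 and 0 CPM and 0.541, 2.66, 0.586 and 0.349 CPM. Most of the reads came from CTR 1, and CAC 2 was highest in its group. CTR mice had a mean of 1.85 ± 2.64 CPM and CAC mice one of 1.03 ± 1.09 CPM (SD, n = 4 each; exact two-sided permutation p = 0.714). The mean difference of -0.81 CPM became 0.49 CPM without CTR 1. Fosb, which encodes a close relative of FOS (chr7:19302696-19310051, minus strand), gave 1 count in each of CTR 2, CTR 3 and CAC 3 and 0 in the other 5 libraries. No difference in Fos or Fosb was detectable at this depth, and neither passed the filter on low counts.

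Jun encodes the JUN subunit that pairs with itself or with FOS proteins. The gene, a single exon at chr4:95049034-95052222 on the minus strand, was at 16.2, 30.4, 27.4 and 15.4 CPM in CTR 1 to 4 and at 29.2, 19.1, 23.1 and 33.1 CPM in CAC 1 to 4. The groups overlapped, and CTR 1, the library with the most Egr1, held less Jun than all libraries but CTR 4. Means were 22.3 ± 7.64 and 26.2 ± 6.22 CPM, and the log2 fold change was 0.24 ± 0.23 (SE; 95% interval -0.25 to 0.74; edgeR adjusted p = 0.719).

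Junb encodes a subunit with weaker transactivation than JUN. It was at 20.2, 9.59, 18.3 and 8.16 CPM in CTR 1 to 4 and at 9.73, 13.8, 13.2 and 9.06 CPM in CAC 1 to 4. CTR 1 and CTR 3 were above every CAC library, and CTR 2 lay within the CAC range and CTR 4 below it. The log2 fold change was -0.23 ± 0.28 (SE; 95% interval -0.83 to 0.37; edgeR adjusted p = 0.797), and without CTR 1 it was 0.006. Junb (chr8:84974484-84978718, minus strand) shares bases with the peroxiredoxin gene Prdx2 on the other strand, and it held fractional counts in 4 libraries. The strand setting of the counting was not given in the sources used here, so reads of these overlapping genes may not be fully separated.

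Jund encodes the subunit that resting cells express constitutively. By the SD of log2 CPM about the group mean, Jund varied least between mice of the 6 tested members. Among CAC mice alone, Zfp36 had a lower coefficient of variation in CPM (12.5% against 14.9%). Jund was at 116, 134, 171 and 169 CPM in CTR 1 to 4 and at 192, 154, 136 and 155 CPM in CAC 1 to 4. CTR 1 and CTR 2 were below every CAC library and CAC 1 was above every CTR library, with the other libraries overlapping. Means were 147 ± 26.9 and 159 ± 23.7 CPM, and the log2 fold change was 0.11 ± 0.13 (SE; 95% interval -0.16 to 0.38; edgeR adjusted p = 0.780). This interval is the narrowest of the 6 tested genes and holds changes of up to 0.38 on the log2 scale. Jund (chr8:70698949-70700616, plus strand) has 1 exon, overlaps the antisense gene Gm11175 and held fractional counts in 5 libraries. Jun likewise overlaps the antisense gene Junos.

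Egr1 encodes a zinc finger factor that is among the fastest genes to respond to growth factors, cAMP and mechanical stimuli. It lies at chr18:34859823-34864984 on the plus strand of GRCm38, in 2 exons. Egr1 was at 57.9, 14.9, 12.4 and 1.76 CPM in CTR 1 to 4 (161, 56, 30 and 8 counts). In CAC 1 to 4 it was at 4.87, 3.19, 0.879 and 3.49 CPM (9, 6, 3 and 10 counts). CTR 1 to 3 were above every CAC library, while CTR 4 was below 3 of the 4 CAC libraries. The highest CTR mouse exceeded the lowest by 32.8-fold. CTR mice averaged 21.8 ± 24.8 CPM and CAC mice 3.11 ± 1.65 CPM (SD, n = 4 each). The log2 fold change, CAC against CTR, was -2.85 with a standard error of 1.26 and a 95% interval of -5.91 to 0.21, and the difference did not pass the test (edgeR adjusted p = 0.418). An exact two-sided permutation test on CPM gave p = 0.114, where 70 assignments of the mice allow no p below 0.0286. The size of the difference rested on single mice: without CTR 1 it was -1.68 (edgeR adjusted p = 0.592), the CTR mean being 9.71 CPM, and without CTR 4 it was -3.29 (edgeR adjusted p = 0.221). Over all settings tried, the adjusted p of Egr1 ranged from 0.173, with DESeq2, to 0.592.

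Atf3 encodes a stress-induced factor of the ATF family that pairs with JUN proteins and acts downstream of the integrated stress response. The gene (chr1:191170296-191218039, minus strand) had 1 to 9 counts per library, at 1.44, 1.60, 1.24 and 1.98 CPM in CTR 1 to 4 and at 0.541, 2.13, 2.34 and 1.39 CPM in CAC 1 to 4. The CAC libraries spread on both sides of the CTR libraries, and the means were 1.57 ± 0.314 and 1.60 ± 0.816 CPM (exact two-sided permutation p = 0.971). The difference of 0.03 CPM changed sign in 4 of 8 leave-one-out comparisons.

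Ier2 encodes a small nuclear protein of the early growth response. The gene (chr8:84661331-84662852, minus strand, 1 exon) was at 4.32, 2.66, 2.90 and 2.65 CPM in CTR 1 to 4 and at 0.541, 2.13, 2.93 and 2.44 CPM in CAC 1 to 4. CTR 1 was again highest, and CAC 1, with 1 count, was lowest. Means were 3.13 ± 0.799 and 2.01 ± 1.03 CPM (exact two-sided permutation p = 0.143). The difference of -1.12 CPM was -0.63 CPM without CAC 1 and -0.73 CPM without CTR 1, and without CAC 3 it was -1.43 CPM with the groups no longer overlapping (exact permutation p = 0.0286, the smallest possible). Atf3 and Ier2 also fell short of the low-count filter. With no filter, edgeR gave log2 fold changes of -0.84 for Fos, -0.48 for Fosb, 0.03 for Atf3 and -0.52 for Ier2, with adjusted p from 0.682 to 0.987.

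The proteins of Btg2 and Zfp36 act on mRNA decay. BTG2 recruits the CCR4-NOT deadenylase, and ZFP36 (tristetraprolin) binds AU-rich elements in cytokine and immediate early transcripts, its own among them. Btg2 (chr1:134075170-134079120, minus strand, 2 exons) was at 3.96, 5.33, 3.32 and 4.41 CPM in CTR 1 to 4 and at 4.32, 7.44, 4.98 and 4.53 CPM in CAC 1 to 4. Only CAC 2 stood above all CTR libraries. The log2 fold change was 0.26 ± 0.29 (SE; 95% interval -0.34 to 0.87; edgeR adjusted p = 0.766). Zfp36 (chr7:28376784-28380253, minus strand, overlapping the antisense gene Gm44710) was at 2.16, 2.93, 5.39 and 3.31 CPM in CTR 1 to 4 and at 5.41, 4.25, 4.40 and 4.18 CPM in CAC 1 to 4. CTR 1, CTR 2 and CTR 4 were below every CAC library, and CTR 3 was level with the highest, CAC 1. Zfp36 thus passed the filter on low counts mainly through the CAC mice. The direction of its fold change is therefore not independent of that filter. Its log2 fold change was 0.42 ± 0.33 (SE; 95% interval -0.26 to 1.10; edgeR adjusted p = 0.638).

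The heptamer TATTTAT is shown with 10 bases on each side for Zfp36 and Fos, which held the most copies, and for Jun. Each stretch is from the longest coding transcript of GENCODE M21 (GRCm38), written 5′ to 3′ in the sense of the gene, the heptamer in capitals. These are matches of letters, and neither ZFP36 binding nor decay was measured. The Fos site is at chr12:85477104-85477130 on the plus strand, the Zfp36 site at chr7:28376967-28376993 on the minus strand and the Jun site at chr4:95049080-95049106 on the minus strand.
Fos: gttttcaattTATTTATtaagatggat
Zfp36: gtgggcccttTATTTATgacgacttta
Jun: tgcttgtgcaTATTTATaatagcgttc
Zfp36 held 3 copies, Fos 2, and Fosb, Jun, Jund, Atf3 and Btg2 1 each, while Junb and Ier2 held 0. Thus 7 of the 9 members searched had the heptamer, and 27.2% of 20481 protein-coding genes with a 3′ untranslated region did. Median lengths of that region were 815 bases in the members and 926 bases in all genes.

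**Figure D2:**
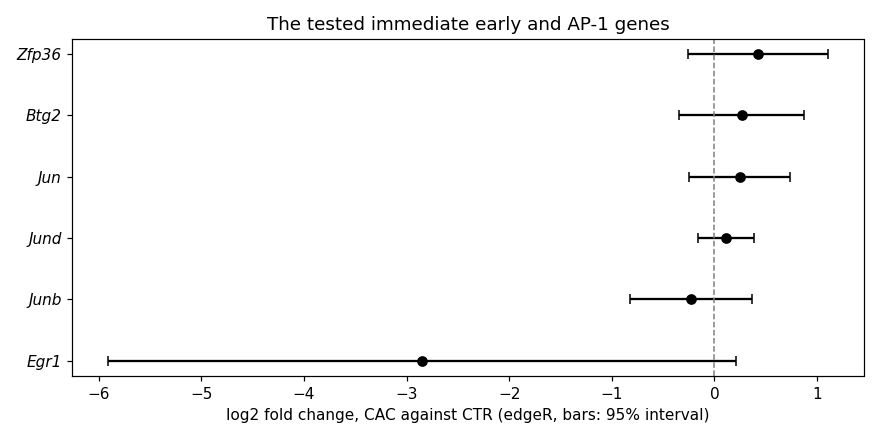
Log2 fold change, CAC against CTR (x axis, edgeR), of the 6 tested genes, each a point with its 95% interval as a bar and a dashed line at 0. Every interval crosses 0, from the narrow one of Jund (-0.16 to 0.38) to that of Egr1 (-5.91 to 0.21).

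The spread between mice separated Egr1 from the other tested members. Measured as the SD of log2 CPM about the group mean over the 8 libraries, it was 1.44 for Egr1, which ranked 11 from the highest of 9876 genes. The same SD was 0.48 for Junb, 0.42 for Jun, 0.34 for Zfp36, 0.28 for Btg2 and 0.24 for Jund, and the median of all tested genes was 0.256. The Egr1 dispersion estimated by edgeR was 36.6 times the trend for genes of its abundance, against 2.32 times for Junb and 1.05 times for Jund. Leaving out each library in turn, the SD of Egr1 stayed between 0.967, without CTR 4, and 1.58. Fos, at 0 to 16 counts and not tested, had a larger coefficient of variation in CPM than Egr1 in CTR mice (143% against 114%) and in CAC mice (105% against 53.3%).

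**Figure D3:**
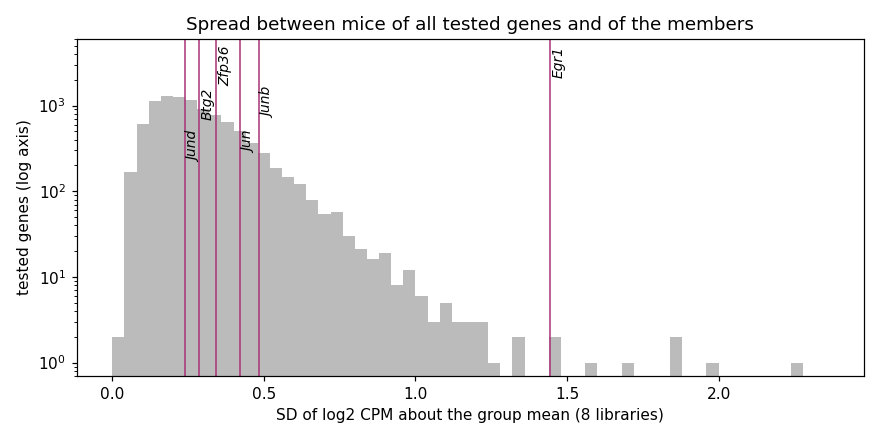
Number of tested genes (y axis, log scale) by the SD of log2 CPM about the group mean (x axis, 8 libraries), with the 6 tested members as vertical lines. Egr1 at 1.44 lies in the far right tail, and the other members lie between 0.24 and 0.48.

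Taken by library, CTR 1 was the highest of all 8 for 4 members (Fos, Junb, Egr1 and Ier2) and the lowest for 3 (Jund, Zfp36 and, with other libraries at 0, Fosb). CTR 4 was never the highest and was the lowest, ties included, for 4 members (Fos, Fosb, Jun and Junb). Among CAC mice, CAC 1 was highest of all 8 for Jund and Zfp36, and CAC 2, CAC 3 and CAC 4 for 1 gene each. Summed over the 10 members without Jund, the level was 112, 68.5, 72.2 and 37.7 CPM in CTR 1 to 4 and 55.1, 54.8, 52.7 and 58.6 CPM in CAC 1 to 4. CTR 1 was at the top and CTR 4 at the bottom, and 57.9 of the 112 CPM of CTR 1 were Egr1. Summed over all 10 members, the order was another: the CTR mice ran from 202 to 243 CPM and lay within the range of the CAC mice, 189 to 248 CPM, with CAC 1 highest and CAC 3 lowest. CTR 1 lay within the range of the other CTR mice in its total (2749558 counts), its mitochondrial share (31.4%), or its summed skeletal muscle (1377 CPM) and erythroid (9983 CPM) markers. Its summed macrophage markers, at 242 CPM, and endothelial markers, at 1350 CPM, were above theirs (219 to 239 and 1319 to 1333 CPM). Its Schwann cell markers, at 282 CPM, were below theirs (341 to 403 CPM), and so, slightly, were its neutrophil markers (6.48 CPM against 6.64 to 6.92 CPM). Handling, sex and time of collection were not in the labels, and their part in this spread was not tested.

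Correlations between members were mostly weak or below 0. After removal of the group means, the 15 pairs among the 6 tested genes had a median Pearson r of -0.15 over the 8 libraries, with 6 pairs above 0. The highest pair was Jund with Zfp36 (r = 0.80), and Junb with Egr1 came next (r = 0.55). These correlations are descriptions over 8 libraries that share scaling and carry no test. Of all tested genes with a mean of at least 5 CPM, those most like the averaged pattern of Jun, Junb, Jund and Egr1 were Sec22a (r = 0.97), Castor2, Dnajb1, Senp6, Nfat5, Oma1, Acbd5, Ftsj3, Ksr1 and Plscr3 (r = 0.93), over 8 libraries and 8621 candidates. Between 0 and 7 of these 10 recurred when 1 library was left out, with 0 without CTR 4. A search with Egr1 alone, added after its spread was seen, gave Aph1b first (r = 0.96) and held 1 immediate early gene, Dusp1, at rank 6 (r = 0.92), and without CTR 4 none of its 10 genes recurred.

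Other immediate early genes were set beside these library patterns. Of 56 further such genes found in the table, 32 were tested, and CTR 2, not CTR 1, was the highest CTR library for 19 of them, with CTR 1 highest for 8, CTR 3 for 4 and CTR 4 for 1. Over all tested genes the 4 CTR libraries were highest in 25.3%, 24.9%, 26.5% and 23.3%. The next genes were picked after their values were seen. Dusp1, a phosphatase that switches off MAP kinases, was at 29.1, 13.1, 18.3 and 6.62 CPM in CTR 1 to 4 and at 10.8, 8.51, 8.79 and 10.8 CPM in CAC 1 to 4, the order among CTR mice being that of Junb. Klf10, a TGF-beta-inducible zinc finger gene, kept that order, with 15.5 CPM in CTR 1 against 8.79, 12.4 and 7.50 CPM in CTR 2 to 4. Dusp6, a phosphatase specific for ERK, and Rgs2, a regulator of G protein signaling, were highest among CTR mice in CTR 2, at 31.7 and 392 CPM, and lowest in CTR 4, at 10.8 and 82.5 CPM.

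**Figure D4:**
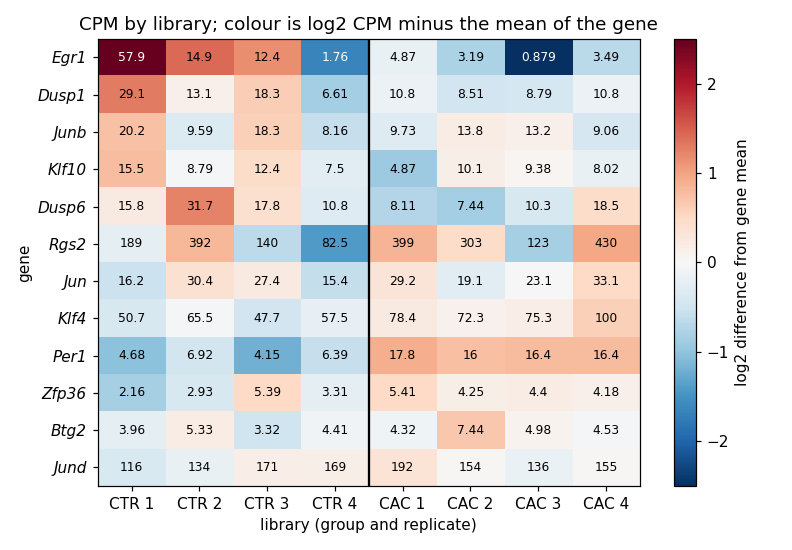
CPM (numbers) of 6 members and 6 further immediate early genes (rows) in the 8 libraries (columns), colored by log2 CPM minus the mean of the gene over all libraries. Egr1, Dusp1, Junb and Klf10 are highest in CTR 1, Dusp6 is highest in CTR 2, and Per1 is higher in every CAC library than in every CTR library.

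Between the groups, 18 of the 32 other immediate early genes were higher in CAC mice and 14 were lower, and their log2 fold changes had a median of 0.10. Of these, 2 rose and 0 fell by edgeR, where 0.739% of all tested genes rose and 0.192% fell. Per1, a core clock gene that is also induced by cAMP and glucocorticoids, was at 4.68, 6.92, 4.15 and 6.39 CPM in CTR 1 to 4 and at 17.8, 16.0, 16.4 and 16.4 CPM in CAC 1 to 4. Its log2 fold change was 1.53 ± 0.21 (SE; edgeR adjusted p = 0.0003), and it was called under every alternative. The balance of calls in this list changed with the setting: with no filter 3 rose and 3 fell (Id2, Pim1 and Dusp6), and Id2 fell with the replicate block, without CTR 4 and without CAC 1, and Pim1 fell without CAC 3. Klf4, a Krüppel-like factor of endothelial and stem cells, rose from 55.4 ± 7.91 to 81.6 ± 12.8 CPM (SD, n = 4 each), or 0.56 on the log2 scale (edgeR adjusted p = 0.0443). That call was lost in 8 alternatives, among them 5 of the 8 fits without 1 library (without CTR 1, CTR 3, CTR 4, CAC 3 or CAC 4), with adjusted p up to 0.151. The summed level of the 10 endothelial markers ran from 1319 to 1350 CPM over the CTR mice and from 1120 to 1588 CPM over the CAC mice, with 4 of the 9 tested higher and 5 lower. Most of that sum was Egfl7 (763 to 1175 CPM), and the 2 endothelial markers that were called both rose, Flt1 by 0.53 (edgeR adjusted p = 0.0166) and Esam by 0.62 (0.0201) on the log2 scale. Flt1 was not called without CTR 1, CTR 4 or CAC 3, nor Esam without CTR 1, CTR 2, CAC 2 or CAC 4, and the part of endothelial cells in the Klf4 values was not tested.

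Among the 12 tested genes of the wider AP-1 and ATF families that are given here, 9 were higher and 3 were lower, and the median of their log2 fold changes was 0.08. By edgeR, DESeq2 and limma-trend alike, 0 of these passed, and 0 had an unadjusted p below 0.05. By edgeR, 12.9% of all tested genes did. First by p came Atf2 (0.25, edgeR adjusted p = 0.517), which encodes a JUN partner activated by stress kinases, Atf6 (0.31, 0.609), a sensor of endoplasmic reticulum stress, and Atf7 (0.20, 0.654), as log2 fold changes. Fosl1 was at 0 in every library, and Fosl2, the other FOS-related gene, ran from 10.8 to 27.4 CPM over CTR mice and from 10.5 to 24.9 CPM over CAC mice (edgeR adjusted p = 0.853).

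Genes that feed into the members gave no call. Of 30 tested genes of the serum response factor, MAP kinase and CREB routes, 18 were higher and 12 lower (median log2 fold change 0.03). Of the 30, 0 passed edgeR, DESeq2 or limma-trend. Where 12.9% of all tested genes had an unadjusted p below 0.05 by edgeR, 3 of these 30 did. Those were the ternary complex factor gene Elk4 (-0.56, edgeR adjusted p = 0.191), the MEKK1 gene Map3k1 (-0.49, 0.296) and the JNK kinase gene Map2k4 (0.47, 0.318), as log2 fold changes. On the output side, 6 genes commonly cited as AP-1 targets were tested, 5 of them higher (median log2 fold change 0.43). Mmp3, which encodes the matrix protease stromelysin and is a standard AP-1 target, rose from 4.76 ± 0.879 to 11.7 ± 1.98 CPM (SD, n = 4 each; log2 fold change 1.27; edgeR adjusted p = 0.00998), a call lost without CAC 3 (adjusted p = 0.0528). Without CTR 4, the metallothionein gene Mt2 was called as well, and DESeq2 called it with all 8 libraries. Mmp3 in CTR 1, the mouse with the most Egr1 and Fos, was at 3.96 CPM, the lowest of the 8.

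Decay and stress partners gave no call in the main edgeR fit. Counts below an unadjusted p of 0.05 by edgeR are to be read beside 12.9% of all tested genes. Of 16 tested genes of the BTG and CCR4-NOT group, 10 were higher (median log2 fold change 0.06), 0 were called by edgeR, DESeq2 or limma-trend, and 2 had an unadjusted p below 0.05 by edgeR, the ubiquitin ligase gene Cnot4 (0.80, edgeR adjusted p = 0.148) and Tob2 (0.48, 0.360). Cnot3, next by p, had a log2 fold change of 0.60 and was called by edgeR with the replicate block, as was Tob2 with no filter on low counts. Among AU-rich transcripts bound by ZFP36, only 4 of 16 were tested, 3 of them higher, with 0 called and 0 below an unadjusted p of 0.05 by edgeR: Vegfa (0.14), Zfp36l1 (-0.16), Zfp36l2 (0.17) and Ier3. DESeq2 and limma-trend also called 0. Of 9 integrated stress response genes around ATF3, 3 were higher and 6 lower (median log2 fold change -0.03), with 0 called by the 3 tools, 0 below an unadjusted p of 0.05 by edgeR, and Cebpb (-0.32), Asns (-0.22) and Vldlr (-0.11) first by p. Heat shock genes, which tissue stress also induces, were higher in 12 of 13 cases (median log2 fold change 0.26). None passed edgeR, DESeq2 or limma-trend. By edgeR, 6 of the 13 had an unadjusted p below 0.05, led by Hsph1 (0.54, edgeR adjusted p = 0.182), Hspb1 (0.41, 0.216) and Hsp90aa1 (0.29, 0.237). Without CAC 3, 1 of the heat shock genes was called, Hspb1. The sum of their list ran from 2757 to 3123 CPM over the CTR mice and from 3135 to 3676 CPM over the CAC mice.

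Some markers of other cell types were called by edgeR. Over all tested genes, 0.932% were called and 12.9% had an unadjusted p below 0.05. At that share, 0 calls among 6 tested members is no contrast with the markers. All 9 tested of 12 macrophage and monocyte markers were higher in CAC mice, 2 of them by the test (C1qa and C1qb), and their sum ran from 219 to 242 CPM over the CTR mice and from 298 to 419 CPM over the CAC mice. Of 12 neutrophil markers, 3 were tested and called higher (S100a8, S100a9 and, except without CTR 1, CTR 2 or CTR 4, Retnlg). These 3 were low in CTR mice (2.88 to 4.79, 0.83 to 2.52 and 0.36 to 2.07 CPM) and passed the filter through the CAC mice. That all 3 rose was therefore largely set by the filter and is not a share of the list. The sum of the list ran from 6.48 to 6.92 CPM over the CTR mice and from 166 to 435 CPM over the CAC mice. Erythroid markers summed to between 6180 and 19269 CPM over the CTR mice and 14637 and 44327 CPM over the CAC mice. Of 6 tested, 1 was called, Slc4a1, which was at 0 to 1.66 CPM in CTR mice and passed the filter through the CAC mice. Skeletal muscle markers summed to between 1189 and 2992 CPM over the CTR mice and 2440 and 4450 CPM over the CAC mice. By edgeR 0 of 10 were called and 4 had an unadjusted p below 0.05, led by Myh4, Tnnt3 and Tnnc2 (log2 fold changes 1.30, 1.13 and 0.96). With the replicate block those 3 were called, and DESeq2 called Myh4. Of the brown adipocyte markers, 1 of 12 was called, Ppargc1a (0.73, edgeR adjusted p = 0.0201). A further 4 had an unadjusted p below 0.05 and negative log2 fold changes, namely Plin1 (-0.27), Pparg (-0.71), Cox8b (-0.22) and Cox7a1 (-0.22). Without overlap between the groups, 3 of the 12 were lower and 0 higher, against 336 and 359 of all 9876 tested genes. By edgeR, 0 were called of 9 fibroblast, 8 smooth muscle, 4 Schwann cell and 1 lymphoid markers tested, with 2, 3, 0 and 0 below an unadjusted p of 0.05, and DESeq2 and limma-trend called 0 as well. First by p, with their log2 fold changes, were Cd34 (0.69), Col1a2 (-0.61) and Dpt (-0.28) of fibroblasts, Pdgfrb (-0.67), Cnn1 (0.67) and Myh11 (0.66) of smooth muscle and pericytes, Mbp (0.21) and Pmp22 (-0.13) of Schwann cells, and Ighm (-0.21) of lymphoid cells. With 1 library left out, 0 to 2 brown adipocyte markers (0 without CTR 1, CTR 2 or CAC 3), 0 to 2 endothelial markers (0 without CTR 1) and 0 to 1 fibroblast markers (1 without CAC 1, CAC 3 or CAC 4) were called. With no filter on low counts, edgeR called 2 fibroblast markers, Col1a2 and Cd34, and 2 brown adipocyte markers, Ppargc1a and Pparg. Of the 12 neutrophil markers it then called 5, and of the 12 macrophage and monocyte markers 3. With the replicate block it called Ppargc1a and Dio2 among the brown adipocyte markers. The part of these cell types in the levels of the 10 genes was not tested.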

How the data were processed

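RNA of BAT from 8 mice was sequenced as digital mRNA libraries from 50 ng of total RNA, single-end over 75 cycles. Per the labels and the study's methods, the authors aligned reads to mm10 with HISAT2 2.2.1 after FastQC 0.11.9 and counted them with featureCounts, keeping reads that map to several places. Some deposited values are fractional, and the source of the fractions was not tested. The submitters' processing notes give its version as 2.0.34. The deposited values are therefore expected counts per gene, and they were rounded to whole numbers. A deposited table of normalized counts was not used.

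In R 4.3.3, genes were filtered with filterByExpr, scaled by TMM and tested with edgeR 4.0.16 (robust quasi-likelihood test, CAC against CTR, Benjamini-Hochberg adjustment over 9876 genes, threshold 0.05). CPM is the count over the effective library size. Standard errors come from the fold change and its F statistic. Genes below the filter were compared by exact two-sided permutation of CPM. Spreads and correlations used log2 CPM with a prior count of 2. Alternatives were DESeq2 1.42.0, limma-trend 3.58.1, other scalings and filters, a replicate block, and each library left out in turn. The code was checked on simulated counts.

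By rule, the named genes were all 10 members and the 10 genes most correlated with the averaged members. From 8 further pathway lists and 10 marker lists, every called gene was named, or otherwise the 3 with the smallest p. Other genes were named outside this rule, and Dusp1, Klf10, Dusp6 and Rgs2 were picked after their values were seen. Some items of these lists are not reported here. The members and lists were chosen with earlier results of these data known. Where nothing beyond the mouse separates samples, p-values set a group difference against the spread between these mice. Gene positions are from GENCODE M21 (GRCm38), to which 91.4% of gene identifiers matched without version. Detection limits cover counting error only, and the intervals of fold changes include the spread between mice.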

Additional observations from a re-analysis of the deposited data

Results flagged for a closer look

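In 56 groups of 4 libraries examined (10 genes and 18 list sums in each of 2 groups), 6 had a single library far from the other 3, where chance alone gives about 1 in 20, or 2.8. Fos in CTR 1 was at 5.76 CPM, while the other CTR mice were between 0 and 0.83 CPM. Fos in CAC 2 was at 2.66 CPM, against 0.349 to 0.586 CPM in the other CAC mice, a gap that rests on 5 counts. Fosb in CAC 3 was at 0.293 CPM, which is 1 count, with the other CAC mice at 0. A single count beside zeros always stands apart by this measure, so Fosb is not to be counted against the number expected by chance. Ier2 in CTR 1 was at 4.32 CPM, against 2.65 to 2.90 CPM in the other CTR mice. The summed brown adipocyte markers of CTR 4 were at 19143 CPM, against 17180 to 17377 CPM. The summed Schwann cell markers of CAC 1 were at 441 CPM, against 291 to 304 CPM. Egr1 in CTR 1, at 57.9 CPM, did not stand apart by this measure, since the other CTR mice were themselves spread from 1.76 to 14.9 CPM.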

How the results depend on the processing

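Members were called in 0 cases under all 18 other settings, a threshold of 0.1 included. Their fold changes kept direction except that of Junb, which ran from -0.44 to 0.006 with 1 library left out, 0.006 being without CTR replicate 1. Their size moved more: with 1 library left out, Jund (0.11) ran from 0.013 without CTR replicate 1 to 0.19, Jun (0.24) from 0.088 without CTR replicate 4 to 0.45 without CTR replicate 2, Btg2 (0.26) from 0.10 without CAC replicate 2 to 0.39 and Zfp36 (0.42) from 0.28 to 0.65 without CTR replicate 3. Among the untested members, the difference in mean CPM of Fos ran from -1.43 to 0.49, the latter without CTR replicate 1, and that of Atf3 from -0.21 to 0.39, being -0.0075 without CTR replicate 1, -0.072 without CTR replicate 3, -0.14 without CAC replicate 2 and -0.21 without CAC replicate 3. These leave-one-out differences were added after the data were seen. The cause of these changes was not tested.

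Of all genes, 92 were called, 351 with no filter on low counts, 183 at an adjusted p of 0.1, 140 with the replicate block, and 42 to 135 with 1 library left out, 42 without CTR replicate 1 and 60 without CAC replicate 3. The 2 calls among other immediate early genes became 1 under library size scaling, upper quartile scaling and limma-trend, 6 with no filter (3 higher, 3 lower), 4 with the block (3 higher, 1 lower) and 1 to 3 with 1 library left out. The AP-1 target count of 1 became 2 with DESeq2, no filter and the block and 0 to 2 with 1 library left out. BTG and CCR4-NOT genes went from 0 to 1 with no filter and with the block, and heat shock genes from 0 to 1 with no filter and 0 to 1 with 1 library left out, the call being without CAC replicate 3.

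With the replicate number as a block, the Egr1 difference was -2.48 on the log2 scale (edgeR adjusted p = 0.272). The numbers did not pair the mice: deviations of same-numbered libraries correlated at 0.031, -0.023, 0.028 and 0.036, and not every library correlated best with its own number. Fos, Fosb, Atf3 and Ier2 did not pass the filter on low counts and had at most 16 counts in any library. Btg2 and Zfp36 passed it, with 8 to 20 and 6 to 15 counts, so their counts were low as well.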
